A study of Mus musculus with 16 samples.

Results

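The S100 proteins are small calcium-binding proteins, most of them encoded side by side with the genes of the cornified envelope in the epidermal differentiation complex. The members followed here were S100a8, S100a9, S100a3, S100a4, S100a6, S100a10, S100a11, S100a13, S100a14 and S100a16. They were taken by gene name from the array design, which holds 12 probes for these 10 genes among 55681 probes, and each gene was read from its brighter probe, so that the 10 genes were 10 of the 31527 gene rows tested. All 10 passed the filter on dim probes, which asked for 2 or more arrays well above background. S100a8 and S100a9 were well above background on 8 of 15 and 10 of 16 arrays that carried the background flag, and the other 8 genes were well above background on every array that carried it.

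S100 proteins change shape when they bind calcium and then grip partner proteins such as annexins. S100A8 and S100A9 pair into calprotectin, which is stored in neutrophils and made by stressed or wounded keratinocytes, and which acts outside the cell as an alarmin on the receptors TLR4 and RAGE (encoded by Ager). S100A4 and S100A6 are linked with cell movement and growth and have been described in the epithelium at the base of the resting hair follicle, while S100A10, S100A11, S100A14 and S100A16 are found in many epithelia.

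Sorted mouse skin cells were profiled with one-colour Agilent arrays, of which there were 16 for 16 groups, so that a group had 1 array. Hair follicle stem cells (HFSC, gated on high CD34 and ITGA6 without Sca1) were measured in 6 conditions, each with an array labelled aHFSC and an array labelled tHFSC, and interfollicular epidermis (IFE, gated on high ITGA6 and Sca1) was measured in 4 conditions. The labels do not spell out aHFSC and tHFSC, and they name hair plucking (3 days) only for the aHFSC of the Col17a1 knockout and of the control. The RU486-treated young conditions received 2.5 mg of the antiprogestin RU486 on the skin for 5 days at 8 weeks of age: the Col17a1 conditional knockout (cKO; Col17a1 flox/flox with K15crePR, an RU486-inducible Cre driven by a keratin 15 promoter), the aPKC conditional knockout (cKO; aPKCλ flox/flox, with the same Cre) and the C57BL/6 control. The remaining HFSC conditions were the young hCOL17A1 transgenic, the aged hCOL17A1 transgenic and the aged wild type (WT, C57BL/6), for which the labels give no RU486, and the IFE came from aged hCOL17A1, aged WT, young hCOL17A1 and young WT mice. Young mice were 12 weeks old and aged mice 25 to 26 months. The labels do not say how the hCOL17A1 transgene is driven, whether mice were pooled for an array, or which mice the arrays share.

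Levels below are log2 of the processed signal minus the array's 75th percentile, so a level of 0 is the signal that 75% of the probes of that array stay under. With 1 array a group, differences were taken from a single limma fit of all 16 arrays, in which the spread is the scatter of the conditions around additive effects of state, condition, age and transgene. The adjusted p-values (limma, Benjamini-Hochberg over 31527 gene rows, threshold 0.05) are therefore set against that scatter, and the variation among mice was not measured. Means with an SD run over the conditions of a population, which are not replicates. Levels of different genes come from different probes and are not compared with each other. In sorted bulk cells, more cells of a type and more RNA per cell cannot be told apart.

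The arrays followed their sort labels. Of 12 markers of the bulge, the stem cell niche of the follicle, 11 rose in aHFSC and 11 rose in tHFSC against IFE, and of 10 IFE markers 8 fell in aHFSC and 9 fell in tHFSC. The share of probes well above background was 73.8% to 79.8% on 14 arrays and was lower on the aged hCOL17A1 aHFSC array (59.1%) and the aged hCOL17A1 tHFSC array (68.8%). The young hCOL17A1 IFE array correlated with the other IFE arrays at 0.92 to 0.93 over the gene rows, whereas the other 3 correlated with each other at 0.98, and its Cd34 level was 0.32 against -6.45 to -3.86 on the other IFE arrays. Prkci, the gene of the aPKC knockout, was 3.28 and 3.44 in the aPKC cKO aHFSC and tHFSC against 4.37 and 4.23 in the control, and Col17a1 was 5.97 and 6.75 in the Col17a1 cKO against 6.17 and 6.998 in the control, and neither fitted difference passed (adjusted p = 1 for both, limma). Whether those 2 probes lie inside the deleted exons is not given in the sources used here. The 8 young HFSC arrays share a slide, and the 4 aged HFSC and 4 IFE arrays share another. In HFSC against IFE the young pairs therefore also differ by slide, while the aged pairs do not. The pairs of young control HFSC with young WT IFE differ by RU486 as well, and for aHFSC by the labelled plucking.

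All 10 genes lie on mouse chromosome 3. In the array's own build, mm9, the probes used for S100a13, S100a14, S100a16, S100a3, S100a4, S100a6, S100a8 and S100a9 run from 90328442 to 90496632, and those for S100a11 and S100a10 start at 93330022 and 93368437, with the genes of the cornified envelope between. S100a9 is read from the minus strand and the other 9 probes used lie on the plus strand. A RefSeq promoter table (build GRCm38.p6) held 12 transcription starts for 8 of the 10 genes, S100a10 and S100a14 being without an entry. The promoters of the alarmin pair, of which S100a9 passed the test between aHFSC and tHFSC, are shown first, from 250 bases before to 30 bases after the annotated start, with TATAAA in capitals and, in S100a9, the C/EBP-type letters TTGCNNAA in capitals as well.
S100a8 promoter, chr3:90668821-90669100, plus strand: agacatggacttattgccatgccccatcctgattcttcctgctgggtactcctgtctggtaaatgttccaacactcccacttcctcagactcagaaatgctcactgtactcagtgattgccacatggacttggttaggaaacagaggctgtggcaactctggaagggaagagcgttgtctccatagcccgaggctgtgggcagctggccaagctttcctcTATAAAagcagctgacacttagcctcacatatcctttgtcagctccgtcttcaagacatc
S100a9 promoter, chr3:90695692-90695971, minus strand: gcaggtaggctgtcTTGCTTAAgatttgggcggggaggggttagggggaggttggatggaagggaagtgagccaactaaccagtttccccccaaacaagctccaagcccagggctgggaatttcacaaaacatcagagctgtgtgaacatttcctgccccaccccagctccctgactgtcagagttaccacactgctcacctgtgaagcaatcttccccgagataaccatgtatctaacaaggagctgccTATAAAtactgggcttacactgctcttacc

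In S100a8 the TATAAA began 30 bases before the start, and in the S100a9 entry it began at the annotated start itself and the TTGCTTAA began 236 bases before that start. S100a4 and S100a6, which both stood higher in HFSC than in IFE, are shown with TATAAA and the NF-kappaB-type letters (GGG, then 5 bases of any kind, then CC) in capitals (overlapping matches run together).
S100a4 promoter, chr3:90603520-90603799, plus strand: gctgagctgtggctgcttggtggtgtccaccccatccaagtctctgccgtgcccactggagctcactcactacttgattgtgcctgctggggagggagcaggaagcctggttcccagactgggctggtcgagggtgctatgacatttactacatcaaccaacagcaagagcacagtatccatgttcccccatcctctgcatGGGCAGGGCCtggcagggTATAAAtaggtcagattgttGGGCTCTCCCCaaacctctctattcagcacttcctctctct
S100a6 promoter, chr3:90612644-90612923, plus strand: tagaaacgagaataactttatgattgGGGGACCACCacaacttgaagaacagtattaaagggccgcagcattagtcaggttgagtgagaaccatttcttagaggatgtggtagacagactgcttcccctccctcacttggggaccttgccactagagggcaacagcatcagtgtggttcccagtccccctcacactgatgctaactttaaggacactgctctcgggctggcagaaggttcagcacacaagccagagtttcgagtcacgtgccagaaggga
The letters were searched on both strands of the 280 bases, and a match is a description of sequence only. TATAAA was found at 4 of the 12 starts (S100a3, S100a4, S100a8 and S100a9) and at 13.1% of all 32851 mouse promoters in the table. TTGCNNAA was found at 1 of the 12 starts, that of S100a9, and at 10.4% of all promoters. The NF-kappaB-type letters were found at 6 of the 12 starts and at 48.9% of all promoters, and the AP-1-type letters TGANTCA at 2 of the 12 starts (S100a11, with 2 matches, and S100a16) and at 7.46% of all promoters.

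The alarmin S100a9 was higher on every aHFSC array than on the tHFSC array of the same condition. Its level in aHFSC was -0.83 in aged hCOL17A1, -1.79 in aged WT, 1.49 in young hCOL17A1, 2.72 in the Col17a1 cKO, 1.84 in the aPKC cKO and 1.41 in the control. In tHFSC it was -5.36 in aged hCOL17A1, -6.04 in aged WT, -6.70 in young hCOL17A1, -0.77 in the Col17a1 cKO, -1.29 in the aPKC cKO and -6.70 in the control. Detection above background held for 6 of 6 aHFSC arrays but for 2 of 6 tHFSC arrays, those of the knockouts, and the aged aHFSC overlapped with the tHFSC of the knockouts.

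S100a9 rose in aHFSC against tHFSC, by 5.28 ± 0.74 on the log2 scale (SE; adjusted p = 0.0344, limma), and was higher in 6 of 6 condition-matched pairs of arrays. Where an array was not well above background, a level below its lowest signal well above background was raised to that signal. The fold is then no larger than that of the measured signals and is given as "at least". It is not a guaranteed minimum, because a probe can lie above that lowest signal without being well above background. By this measure S100a9 was at least 77.5-fold higher in aHFSC of young hCOL17A1, at least 67.8-fold higher in the control, at least 11.3-fold higher in aged hCOL17A1 and at least 8.74-fold higher in aged WT. In the Col17a1 cKO and the aPKC cKO, where both arrays were well above background, the log2 differences were 3.48 and 3.13. Over all genes 0.539% of gene rows passed in this comparison (0.387% higher and 0.152% lower in aHFSC), and 2 of the 10 S100 genes did, S100a9 upward and S100a4 downward.

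S100a8, the partner of S100a9 in calprotectin, was higher in aHFSC in the 5 pairs with a measured aHFSC signal but did not pass. Its level in aHFSC was -6.31 in aged hCOL17A1, -1.18 in aged WT, -1.44 in young hCOL17A1, 0.31 in the Col17a1 cKO, -0.29 in the aPKC cKO and -2.19 in the control. In tHFSC it was -6.37 in aged hCOL17A1, -5.91 in aged WT, -3.97 in young hCOL17A1, -6.83 in the Col17a1 cKO, -4.22 in the aPKC cKO and -4.61 in the control. On 5 of 6 aHFSC arrays S100a8 stood above all 6 tHFSC arrays, and the aHFSC array of aged hCOL17A1, the array with the lowest share of probes above background, was not well above background, nor was its tHFSC partner, so that pair has no order. The fitted difference was 3.47 ± 0.80 (SE; adjusted p = 0.118, limma). S100a8 was at least 48.4-fold higher in aHFSC of the Col17a1 cKO and at least 13.4-fold higher in aHFSC of aged WT, while the control tHFSC array carried no background flag for this probe.

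**Figure D1:**
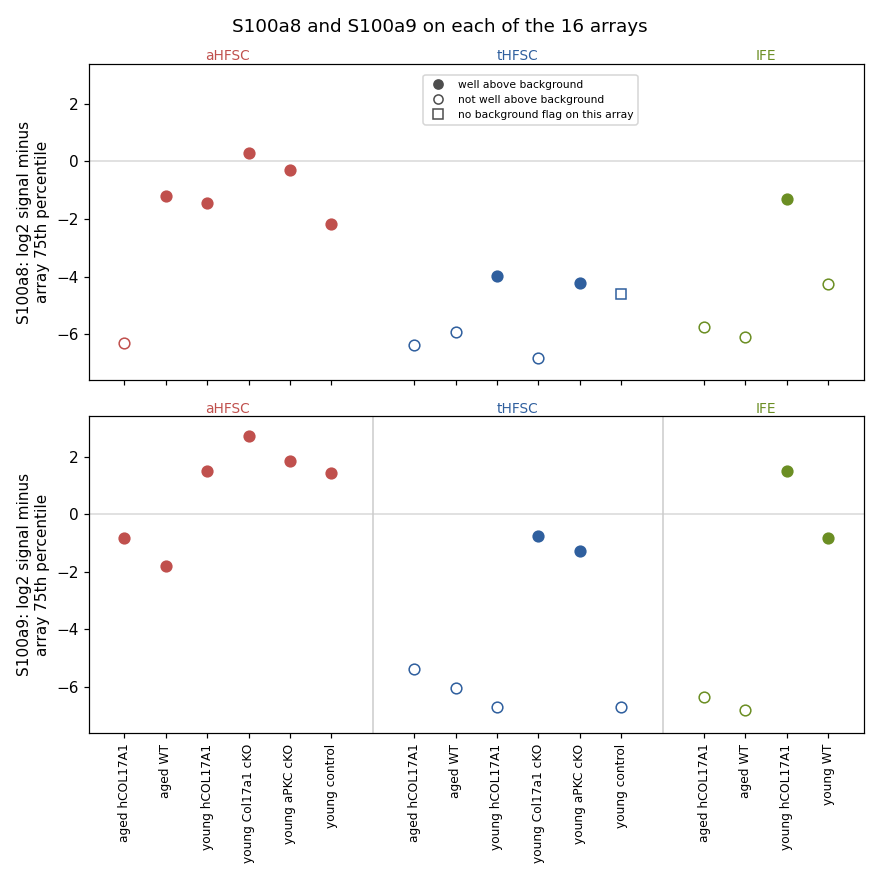
Level of S100a8 (upper panel) and S100a9 (lower panel) on each of the 16 arrays, as log2 signal minus the array's 75th percentile, with aHFSC at the left, tHFSC in the middle and IFE at the right. Filled circles are well above background, open circles are not, and the open square had no flag; S100a9 is filled on 6 of 6 aHFSC, 2 of 6 tHFSC and 2 of 4 IFE arrays.

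Neutrophils carry both alarmins. Of 15 neutrophil and myeloid precursor markers measured (16 listed), 0 passed in aHFSC against tHFSC in limma (1 had an unadjusted p under 0.05) and the median log2 difference was -0.11, beside -0.09 over all gene rows, and 5 of 15 were positive. Per array, 5 to 13 of the 15 markers were well above background in aHFSC, 7 to 14 in tHFSC and 9 to 13 in IFE. Retnlg, which neutrophils express strongly, differed by -1.43 ± 0.42 (SE; adjusted p = 0.196, limma) and was well above background on 0 of 6 aHFSC arrays. The secretory granule gene Ltf differed by -0.66 ± 0.33 (SE; adjusted p = 0.461, limma) and was well above background on 1 of 6 aHFSC arrays. The log2 of the summed signal of the 15 markers was 8.71 to 8.996 in aHFSC, 8.71 to 9.19 in tHFSC and 8.86 to 9.34 in IFE. That sum follows the brightest markers and says little about the dim ones. The median level of the 15 was -4.49 to -3.42 in aHFSC, -4.6 to -3.28 in tHFSC and -3.45 to -3.19 in IFE. None of the 12 leukocyte and macrophage markers and none of the 8 Langerhans and dendritic cell markers passed either, with median differences of -0.16 and -0.04 and with 1 and 0 genes at an unadjusted p under 0.05 (limma). The part of other cells in the alarmin levels of aHFSC was not tested.

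The 26 listed genes of wounded and activated keratinocytes, of which 22 were measured, gave 1 gene that rose in aHFSC against tHFSC and 0 that fell. Gjb2, the gap junction protein connexin 26, rose by 4.85 ± 0.83 (SE; adjusted p = 0.049, limma). Stfa1, a cysteine protease inhibitor of the stefin A family, differed by 4.44 ± 0.77 (SE; adjusted p = 0.0539), Gjb6, connexin 30, by 4.02 ± 0.74 (SE; adjusted p = 0.0612), and the activation keratin Krt16 by 2.49 ± 0.53 (SE; adjusted p = 0.0966), none of which passed in limma. The list's median difference was 0.61, beside -0.09 over all gene rows, and 15 of 22 genes were positive.

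Leaving out single arrays ended the call of S100a9 in aHFSC against tHFSC. It no longer passed when either array of the control, the Col17a1 cKO, young hCOL17A1, aged WT or aged hCOL17A1 was left out (adjusted p = 0.059 to 0.11, limma), and its difference stayed between 4.70 and 5.64 in those fits.

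In IFE the alarmins were well above background only on young arrays, S100a9 on both and S100a8 on that of hCOL17A1. S100a9 was -6.36 in aged hCOL17A1 and -6.81 in aged WT, against 1.497 in young hCOL17A1 and -0.82 in young WT IFE. Neither aged array was well above background and both young arrays were, so the ages did not overlap. By the means of the arrays of each age, S100a9 was at least 35.8-fold lower in aged than in young IFE. That bound is one on the means and not on each pair. The fitted difference was -6.93 ± 1.28 (SE), with an unadjusted p of 0.00048 in limma and an adjusted p of 0.75, and 0% of gene rows passed in this comparison (1993 had an unadjusted p under 0.05). In a fit of the 4 IFE arrays alone, which leaves 1 residual degree of freedom, S100a9 was the 1 S100 gene that passed (adjusted p = 0.0467, limma), among 5 of 31372 gene rows.

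S100a8 was -5.76 in aged hCOL17A1 and -6.08 in aged WT, against -1.29 in young hCOL17A1 and -4.25 in young WT IFE. Of these only young hCOL17A1 was well above background, the IFE array that stood apart from the other IFE arrays (correlations of 0.92 to 0.93). S100a8 was at least 7.93-fold lower in aged than in young hCOL17A1 IFE, while the WT pair has no order. The fitted difference was -3.15 ± 1.39 (SE; adjusted p = 0.75, limma). Stfa1 differed in the same direction, by -5.76 ± 1.34 (SE; adjusted p = 0.75, limma). The T cell gene Cd3g, the member of the T cell list with the smallest p, differed by -4.42 ± 0.68 (SE; adjusted p = 0.675, limma), and the medians of the T cell, Langerhans and neutrophil lists were -1.005, -1.02 and -0.27, beside -0.11 over all gene rows. The part of other cells in the alarmin difference of IFE was not tested.

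Against IFE as a whole neither alarmin passed, in aHFSC (2.70 ± 0.87 for S100a9, adjusted p = 0.141, and 2.08 ± 0.94 for S100a8, adjusted p = 0.297, SE, limma) or in tHFSC (-2.58 ± 0.87 for S100a9, adjusted p = 0.128, and -1.39 ± 0.94 for S100a8, adjusted p = 0.465, SE, limma). The matched pairs of S100a9 were uneven, and the young pairs also differ by slide. In aHFSC it was at least 10.9-fold higher than in IFE in aged hCOL17A1 and at least 12.0-fold higher in aged WT. On the log2 scale it differed by -0.01 in young hCOL17A1 and by 2.23 in the young control aHFSC against young WT IFE. In tHFSC it was at least 77.8-fold lower than in IFE in young hCOL17A1 and at least 14.4-fold lower in the young control against young WT IFE, and in the aged pairs neither array was well above background.

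The knockouts were the only tHFSC arrays on which S100a9 was well above background. Col17a1 encodes collagen XVII, a transmembrane collagen of hemidesmosomes, and aPKC is a polarity kinase. S100a9 in tHFSC was -0.77 in the Col17a1 cKO and -1.29 in the aPKC cKO, against -6.70 in the control, or at least 14.98-fold and at least 10.4-fold higher. In aHFSC the 3 arrays lay closer, at 2.72 in the Col17a1 cKO and 1.84 in the aPKC cKO against 1.41 in the control. The fitted differences over both states were 3.62 ± 1.28 for the Col17a1 cKO (SE; unadjusted p = 0.0207, adjusted p = 1) and 2.92 ± 1.28 for the aPKC cKO (SE; unadjusted p = 0.0501, adjusted p = 1) in limma, and 0% of gene rows passed in either comparison, with 1262 and 1086 at an unadjusted p under 0.05. Both comparisons share the control arrays, and the fit holds no term for a knockout effect that differs between the states. Plucking is labelled for the aHFSC of the control and the Col17a1 cKO but not for those of the aPKC cKO. The aPKC cKO therefore also differs by that label from the control and from the Col17a1 cKO.

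Some markers of other cells also stood higher than in the control on the Col17a1 cKO tHFSC array and on that of young hCOL17A1. On the young hCOL17A1 tHFSC array S100a9 was not well above background (-6.70). The median level of the 10 IFE markers in tHFSC was 3.10 in the Col17a1 cKO and 1.46 in the aPKC cKO, against 1.013 in the control. The median of the 8 Langerhans and dendritic cell markers was 0.42 in the Col17a1 cKO and -2.70 in the aPKC cKO, against -3.27 in the control, and that of the 7 T cell markers was -0.03 and -2.69 against -1.91. The median of the 15 neutrophil markers was -4.6 in the Col17a1 cKO and -3.41 in the aPKC cKO, against -3.28 in the control. On the young hCOL17A1 tHFSC array these medians were 2.18 for IFE, -0.35 for Langerhans and dendritic cell, -0.93 for T cell and -3.52 for neutrophil markers. In the fit over both states, 9 of 10 IFE, 7 of 8 Langerhans and 6 of 7 T cell markers were positive in the Col17a1 cKO (medians 1.011, 0.95 and 1.21), as were 6 of 10, 7 of 8 and 4 of 7 in the aPKC cKO (medians 0.34, 0.68 and 0.09), and none passed (limma). Young hCOL17A1 minus control HFSC gave fitted medians of 1.52 for IFE, 1.86 for Langerhans and 1.11 for T cell markers, and none passed (limma). The part of these cells in the S100a9 signal of the knockouts was not tested.

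S100a8 did not follow S100a9 in these tHFSC arrays. It was not well above background in the Col17a1 cKO (-6.83) and was -4.22 in the aPKC cKO, against -4.61 in the control, for which no flag is held. The fitted differences were 0.13 ± 1.39 for the Col17a1 cKO and 1.14 ± 1.39 for the aPKC cKO (SE; adjusted p = 1 for both, limma). Of the other 8 S100 genes none passed in either knockout, with fitted differences between -1.06 (S100a4, aPKC cKO) and 0.47 (S100a11, aPKC cKO). The 22 wound and alarmin genes had a median difference of 0.75 in the Col17a1 cKO and 0.37 in the aPKC cKO, beside -0.08 and 0.04 over all gene rows, and 0 passed in limma (5 and 1 had an unadjusted p under 0.05, and 18 and 16 of 22 were positive). Between the knockouts, Col17a1 cKO minus aPKC cKO, the S100 genes differed by -1.01 (S100a8) to 0.70 (S100a9) and none passed, with 0% of gene rows passing and 1344 at an unadjusted p under 0.05 (limma).

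The hCOL17A1 transgene gave no S100 call in HFSC or IFE. In young HFSC, hCOL17A1 minus control, the fitted differences ran from -0.85 (S100a4) to 0.69 (S100a8) with 0% of gene rows passing in limma and 2142 at an unadjusted p under 0.05. In this comparison the control alone had received RU486, and plucking is labelled for the control aHFSC alone. In aged HFSC, hCOL17A1 minus WT, they ran from -2.80 ± 1.39 (S100a8, SE; adjusted p = 0.458) to 0.82 ± 1.28 (S100a9, SE; adjusted p = 0.81), again with 0% of gene rows passing and 3794 at an unadjusted p under 0.05 (limma). S100a8 in aHFSC was at least 7.41-fold lower in aged hCOL17A1, the array with 59.1% of probes well above background, than in aged WT, and in tHFSC neither array was well above background. In the same comparison the neutrophil list, with 4 of 15 genes positive, and the leukocyte and macrophage list, with 1 of 12 positive, both had a median of -0.64, beside -0.23 over all gene rows. Other medians were -0.42 for T cell, -0.41 for IFE, -0.33 for Langerhans, -0.30 for melanocyte and Schwann cell and -0.25 for hair shaft markers. Those of fibroblast, endothelial and bulge markers were 0.01, 0.22 and 0.44. The part of other cells in the S100a8 difference was not tested. In IFE the transgene differences ran from -0.32 (S100a14) to 1.64 (S100a8), with 0% of gene rows passing and 1712 at an unadjusted p under 0.05 (limma).

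**Figure D2:**
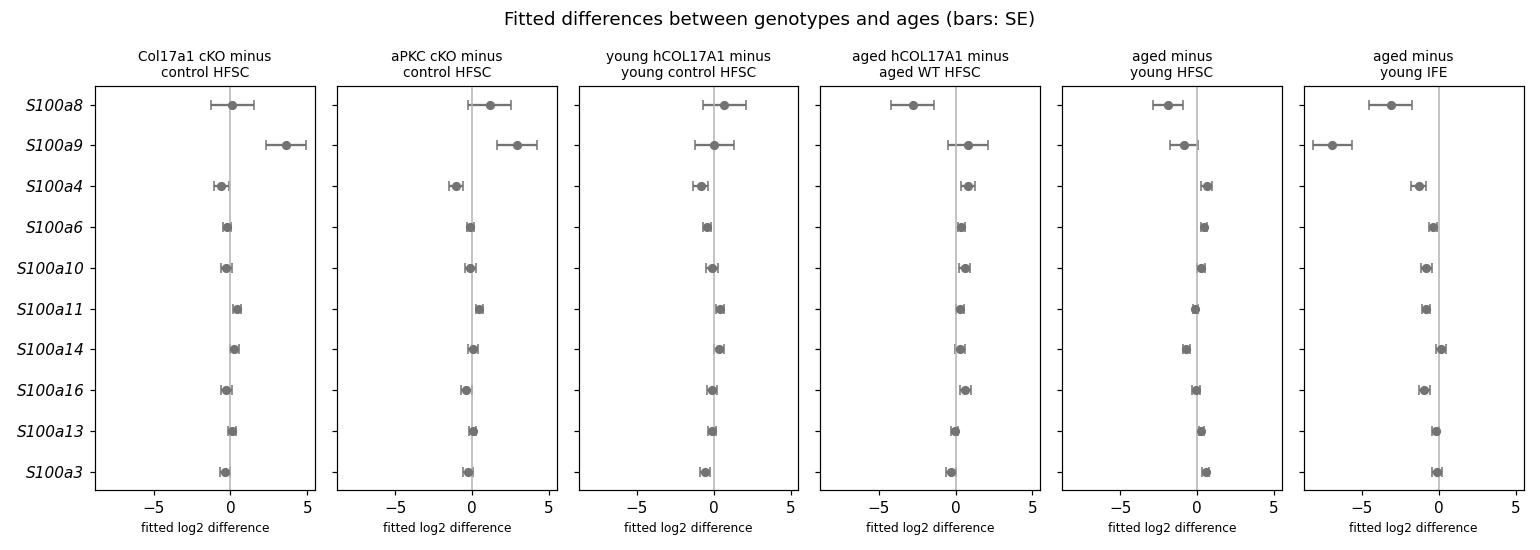
Fitted log2 differences with SE for the 10 S100 genes in 6 comparisons of genotype and age, the name of each comparison giving the direction. No point passes the adjusted threshold; S100a9 lies farthest from 0, at -6.93 in aged minus young IFE and 3.62 in Col17a1 cKO minus control HFSC.

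S100a4, also known as metastasin or fibroblast-specific protein, set the 3 populations apart. Its level in aHFSC was 5.70 in aged hCOL17A1, 3.94 in aged WT, 3.60 in young hCOL17A1, 4.18 in the Col17a1 cKO, 3.59 in the aPKC cKO and 4.76 in the control. In tHFSC it was 6.76 in aged hCOL17A1, 6.92 in aged WT, 5.99 in young hCOL17A1, 5.94 in the Col17a1 cKO, 5.60 in the aPKC cKO and 6.54 in the control. In IFE it was -0.01 in aged hCOL17A1, 0.73 in aged WT, 2.10 in young hCOL17A1 and 1.28 in young WT. The IFE values did not overlap with either HFSC state, and of the aHFSC arrays that of aged hCOL17A1 (5.70) lay above the lowest tHFSC array (5.60).

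S100a4 fell in aHFSC against tHFSC, by -2.00 ± 0.27 (SE; adjusted p = 0.0344, limma), and was lower in 6 of 6 pairs, whose differences ran from -2.98 in aged WT to -1.06 in aged hCOL17A1. It rose against IFE in tHFSC, by 5.502 ± 0.318 (SE; adjusted p = 6.5e-05), and in aHFSC, by 3.50 ± 0.32 (SE; adjusted p = 0.00078), in 4 of 4 pairs each (limma). Of these pairs, the young ones also differ by slide. The order of the means was tHFSC (6.29 ± 0.52), aHFSC (4.29 ± 0.81) and IFE (1.03 ± 0.89; SD over 6, 6 and 4 arrays). With the other probe for S100a4 the differences were -1.96 in aHFSC against tHFSC, 5.48 in tHFSC against IFE and 3.52 in aHFSC against IFE (adjusted p = 0.0304, 2.58e-05 and 0.000285, limma). The probes correlated at 0.972 over the 16 arrays and at 0.997 without the young hCOL17A1 IFE array, which was the highest of the 4 IFE arrays by the probe used (2.10) and the lowest by the other (0.03). Against IFE, 6.5% of gene rows passed in tHFSC and 4.32% in aHFSC, and 4 of the 10 S100 genes passed in each: S100a4 and S100a6 rose (2.11% and 1.63% of gene rows rose) and S100a11 and S100a14 fell (4.39% and 2.69% fell).

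The call of S100a4 in aHFSC against tHFSC ended when either array of the control, the Col17a1 cKO, the aPKC cKO, young hCOL17A1 or aged WT was left out (adjusted p = 0.058 to 0.11, limma), with differences of -2.05 to -1.80. S100a4 is also abundant in fibroblasts, and of 6 fibroblast markers measured (9 listed) 2 rose in both HFSC states against IFE. Fbln1, encoding the matrix protein fibulin 1, rose by 4.99 in tHFSC and 5.65 in aHFSC, and Col1a2, a chain of collagen I, rose by 4.41 and 2.21 and fell by 2.20 in aHFSC against tHFSC (adjusted p = 0.0324, limma). The log2 of the summed fibroblast signal was 4.10 to 6.08 in aHFSC, 3.50 to 5.62 in tHFSC and -0.06 to 1.59 in IFE. That sum follows the brightest of the 6 markers. Their median level overlapped, at -2.82 to -1.25 in aHFSC, -3.51 to -1.45 in tHFSC and -3.49 to -1.99 in IFE. Col1a1 was well above background on 5 of 16 arrays, and the part of fibroblast RNA in the S100a4 differences was not tested.

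S100a6, or calcyclin, had the same order of populations with smaller differences. It lay at 7.87 to 8.84 in aHFSC (median 8.05), 8.09 to 9.01 in tHFSC (median 8.58) and 6.93 to 7.39 in IFE (median 7.11). The HFSC and IFE ranges did not overlap, while the aHFSC and tHFSC ranges did. S100a6 rose against IFE by 1.48 ± 0.17 in tHFSC (SE; adjusted p = 0.00203) and by 1.08 ± 0.17 in aHFSC (SE; adjusted p = 0.00929), in 4 of 4 pairs each (limma). In aHFSC against tHFSC it was lower in 5 of 6 pairs and did not pass (-0.39 ± 0.14, SE; adjusted p = 0.297, limma).

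S100a14, an epithelial S100 protein, had the reverse order. It was 6.08 in aged hCOL17A1, 6.22 in aged WT, 5.77 in young hCOL17A1 and 6.27 in young WT IFE, above every HFSC array. In aHFSC the 6 arrays lay within 4.66 to 5.15, whereas in tHFSC they spread from 3.39 to 4.98, with the lowest values in aged WT (3.39) and aged hCOL17A1 (3.89). S100a14 fell against IFE by -1.80 ± 0.22 in tHFSC (SE; adjusted p = 0.00271) and by -1.31 ± 0.22 in aHFSC (SE; adjusted p = 0.0132), in 4 of 4 pairs each (limma). It was higher in aHFSC than in tHFSC in 5 of 6 pairs, by 0.49 ± 0.18, and did not pass (SE; adjusted p = 0.316, limma).

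S100a11, a partner of annexin A1, was also lower in HFSC. In IFE it was 6.45 in aged hCOL17A1, 6.15 in aged WT, 7.48 in young hCOL17A1 and 6.81 in young WT. It ranged from 5.39 to 6.08 in aHFSC and from 5.33 to 6.14 in tHFSC, so the HFSC states overlapped fully and both lay below the lowest IFE array. S100a11 fell against IFE by -1.16 ± 0.17 in tHFSC (SE; adjusted p = 0.00629) and by -1.04 ± 0.17 in aHFSC (SE; adjusted p = 0.0123), in 4 of 4 pairs each (limma). Between aHFSC and tHFSC it differed by 0.12 ± 0.15 (SE; adjusted p = 0.767, limma).

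In aHFSC against IFE, the calls of S100a6 and S100a11 ended without the young hCOL17A1 IFE array or without the aged WT IFE array (adjusted p = 0.069 to 0.088), and that of S100a14 without any of the 4 IFE arrays (adjusted p = 0.051 to 0.059, limma). The differences kept their sign in these fits, at 1.05 for S100a6, -0.95 for S100a11, and -1.40 to -1.22 for S100a14.

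**Figure D3:**
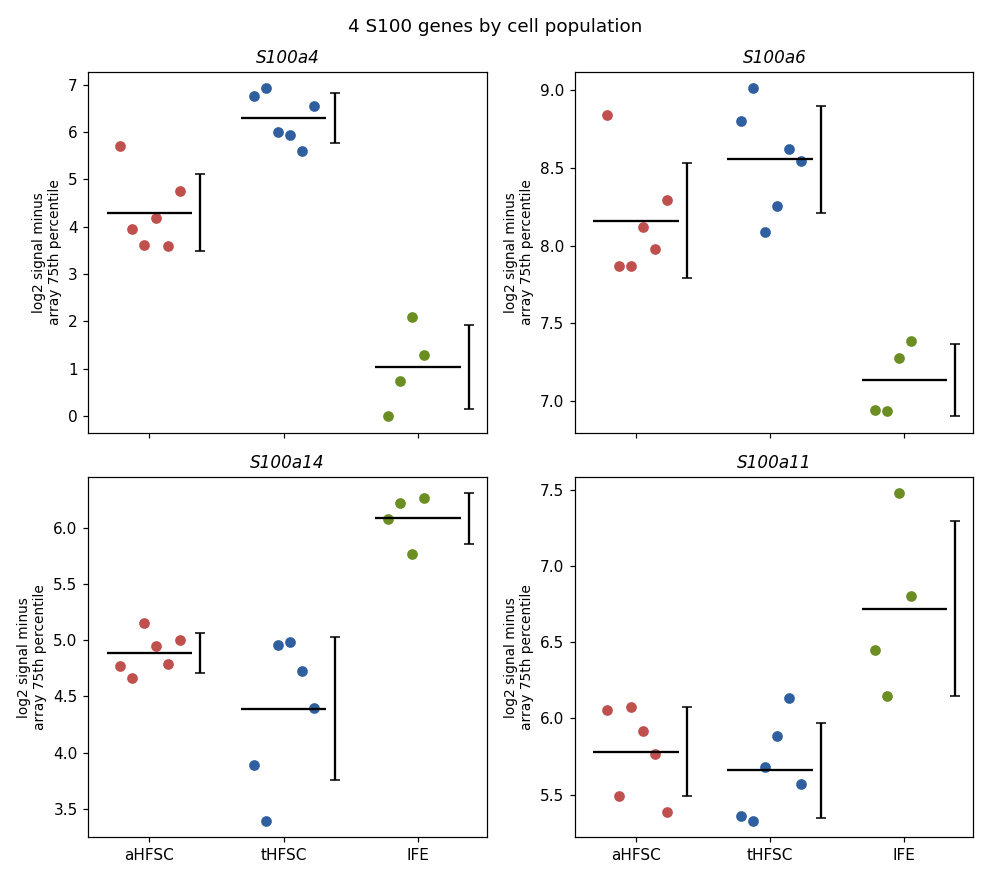
Levels of S100a4, S100a6, S100a14 and S100a11 on each array, as log2 signal minus the array's 75th percentile, by population, with the mean as a line and the SD over arrays as a bar; the vertical axes differ and do not start at 0. IFE arrays (right) lie below all HFSC arrays for S100a4 and S100a6 and above all of them for S100a14 and S100a11.

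S100a10, known as p11, forms a tetramer with annexin A2 at the membrane. It ranged from 4.26 to 5.65 in aHFSC (median 4.70), from 5.03 to 5.56 in tHFSC (median 5.22) and from 5.21 to 6.65 in IFE (median 5.41), with overlap between all 3 populations. It was lower in aHFSC than in tHFSC in 5 of 6 pairs, by -0.47 ± 0.21 (SE; adjusted p = 0.412), and lower in aHFSC than in IFE in 3 of 4 pairs, by -0.81 ± 0.25 (SE; adjusted p = 0.124), and neither passed in limma. The highest value was that of the young hCOL17A1 IFE array, which was also highest for S100a11 and S100a16.

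S100a3 is known as a protein of the hair cuticle, where PADI3 modifies it. It was highest in tHFSC of the aged conditions, at 1.32 in aged hCOL17A1 and 1.27 in aged WT, and ranged from 0.11 to 1.32 over tHFSC, from 0.08 to 0.97 over aHFSC and from -0.02 to 0.26 over IFE. In tHFSC it was higher than in IFE in 4 of 4 pairs, by 0.81 ± 0.21, just short of the threshold (SE; adjusted p = 0.0598, limma). In aHFSC it was lower than in tHFSC in 5 of 6 pairs (-0.42 ± 0.18, SE; adjusted p = 0.393, limma). Of 14 hair shaft and cuticle markers measured, 0 passed in aHFSC against tHFSC (limma; 2 had an unadjusted p under 0.05; median -0.05).

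S100a13, which takes part in the release of FGF1 from cells, was the flattest of the 10 genes, from 3.58 to 4.27 over the arrays. Its differences were 0.03 ± 0.14 in aHFSC against tHFSC, -0.06 ± 0.17 in tHFSC against IFE and -0.04 ± 0.17 in aHFSC against IFE (SE; adjusted p = 0.957, 0.882 and 0.943, limma).

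S100a16, a widely expressed member, ranged from 4.81 to 5.86 in aHFSC, from 4.79 to 5.48 in tHFSC and from 4.92 to 6.49 in IFE by the probe used. Its differences were 0.11 ± 0.20 in aHFSC against tHFSC, -0.26 ± 0.24 in tHFSC against IFE and -0.15 ± 0.24 in aHFSC against IFE (SE; adjusted p = 0.859, 0.6 and 0.794, limma). Its probes went apart on the young hCOL17A1 IFE array, which was the highest of 16 by the probe used (6.49) and the lowest of 16 by the other (1.43). The correlation between the probes was -0.36 over 16 arrays and 0.44 over the 15 others, so that the level of S100a16 is uncertain, in IFE above all.

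**Figure D4:**
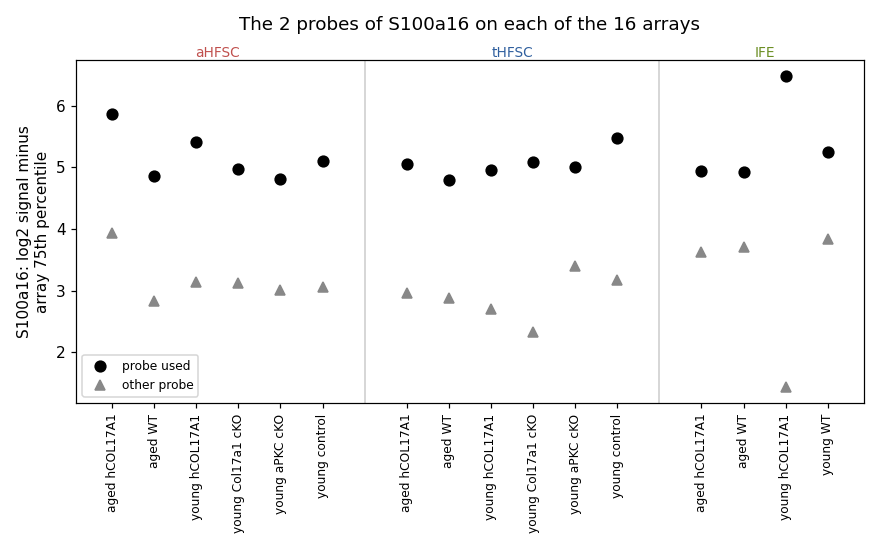
Level of S100a16 by its 2 probes on each of the 16 arrays, as log2 signal minus the array's 75th percentile; circles are the probe used and triangles the other. On the young hCOL17A1 IFE array the circle (6.49) is the highest and the triangle (1.43) the lowest of its kind.

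**Figure D5:**
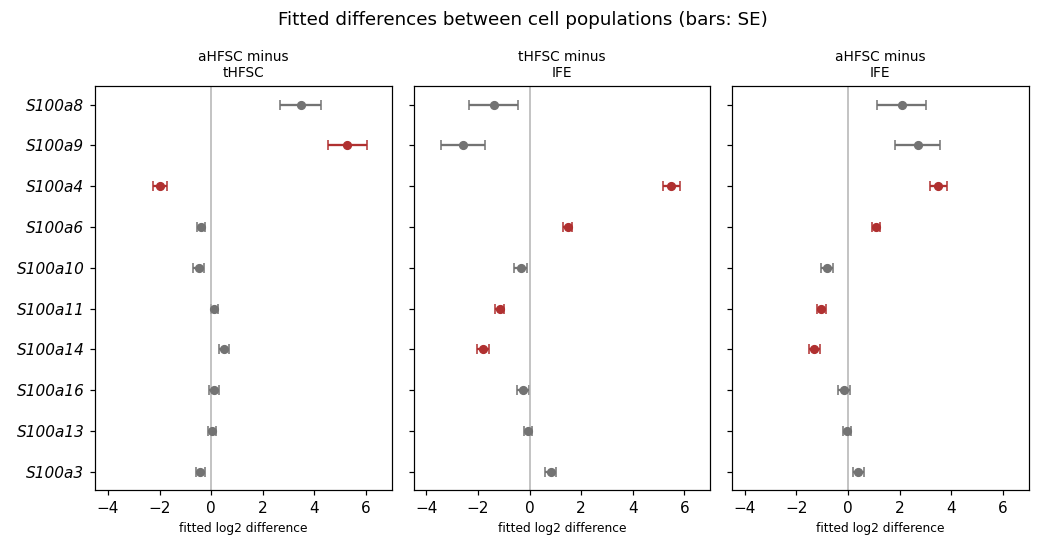
Fitted log2 differences with SE for the 10 S100 genes between the cell populations; red points pass the adjusted threshold of 0.05 and grey points do not. S100a9 (5.28) and S100a4 (-2.00) pass in aHFSC minus tHFSC, and S100a4, S100a6, S100a11 and S100a14 pass in both comparisons with IFE.

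With age, no S100 gene passed in HFSC, where 0.0317% of gene rows passed (0.0159% higher and 0.0159% lower in aged) and age and slide cannot be told apart. The young control, set against aged WT, had also received RU486, and its aHFSC are labelled with plucking. The smallest unadjusted p was that of S100a14, at -0.70 ± 0.23 (SE; unadjusted p = 0.0134, adjusted p = 0.286, limma), and it was lower in aged arrays in 4 of 4 pairs. S100a3 was higher in 4 of 4 pairs, by 0.55 ± 0.22, and S100a6 in 3 of 4, by 0.43 ± 0.17 (SE; adjusted p = 0.375 and 0.373, limma). S100a9 differed by -0.88 ± 0.91 and S100a8 by -1.89 ± 0.99 (SE; adjusted p = 0.734 and 0.473, limma). The 10 IFE markers moved with S100a14 in this comparison, with 0 positive, a median of -2.53 and Krtdap, a gene of differentiating keratinocytes, passing downward (-2.68 ± 0.29, SE; adjusted p = 0.0332, limma), and the part of IFE cells in the S100a14 difference was not tested.

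In IFE the differences of S100a11 (-0.84 ± 0.25), S100a16 (-0.94 ± 0.35), S100a4 (-1.32 ± 0.47) and S100a10 (-0.83 ± 0.37) were negative in both pairs, and none passed (SE; adjusted p = 0.75 for each, limma). With S100a9, the first 3 of these were the 4 of 10 S100 genes with an unadjusted p under 0.05. For S100a4 and S100a16 the age difference rests on the probe: with the other probe it was -0.03 for S100a4, whose hCOL17A1 pair was then 0.38 in aged and 0.03 in young IFE, and 1.03 for S100a16. For S100a10, S100a11 and S100a16 the highest of the 4 arrays was that of young hCOL17A1. S100a14 differed by 0.13 ± 0.32 and S100a3 by -0.15 ± 0.32 (SE; adjusted p = 0.948 and 0.941, limma).

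Whether the aHFSC-minus-tHFSC shift differed between aged and young HFSC was tested by an interaction term, and 0 of the 10 S100 genes passed, as did 0% of gene rows (limma; 1957 had an unadjusted p under 0.05). S100a14 had the smallest p, with a shift larger by 0.87 ± 0.28 in aged HFSC (SE; unadjusted p = 0.0153, adjusted p = 0.754, limma). For S100a9 the shift was smaller by 1.34 in aged HFSC (-1.34 ± 1.60, SE; adjusted p = 0.923), for S100a8 the term was -1.61 ± 1.71 (SE; adjusted p = 0.912) and for S100a4 it was -0.03 ± 0.61 (SE; adjusted p = 0.996, limma).

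Other genes of the family stayed below the threshold with a single exception. Of 9 further S100 genes listed, 8 were measured, and S100a1, a member best known from heart muscle, rose in aHFSC against IFE by 2.34 ± 0.45 (SE; adjusted p = 0.025, limma). In tHFSC against IFE it differed by 1.4996 ± 0.4539 (SE; adjusted p = 0.0941) and in aHFSC against tHFSC by 0.84 ± 0.39 (SE; adjusted p = 0.424, limma). The median differences of the list were -0.03 in aHFSC against tHFSC, 0.05 in tHFSC against IFE and -0.02 in aHFSC against IFE, beside -0.09, -0.05 and -0.14 over all gene rows.

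Of 22 listed receptors and binding partners, 21 were measured. In aHFSC against tHFSC 0 passed in limma and 5 had an unadjusted p under 0.05, the smallest p-values being those of Plat, the plasminogen activator whose product S100A10 binds (-2.61 ± 0.59, SE; adjusted p = 0.113), and of the growth factor Fgf1 (-1.70 ± 0.42, SE; adjusted p = 0.136). In tHFSC against IFE 3 of the 21 rose and 1 fell, beside 2.11% and 4.39% of all gene rows (limma). In aHFSC against IFE 3 of the 21 rose and 2 fell, beside 1.63% and 2.69% of all gene rows (limma). Alcam, a cell adhesion molecule of the immunoglobulin family, rose by 4.61 in tHFSC and 4.87 in aHFSC. Fgf1, released together with S100A13, rose by 5.93 and 4.23 and the annexin Anxa6 by 1.60 and 1.78. Anxa1, the partner of S100A11, fell by 1.48 in tHFSC and by 1.87 in aHFSC (adjusted p = 0.00826 and 0.00329, limma).

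The listed neighbours of the S100 genes in the epidermal differentiation complex did not pass in any of these 3 comparisons. The list holds genes of the cornified envelope and others, such as Pglyrp3, Pglyrp4 and Smcp. Of 26 listed, 25 were measured, with median differences of 0.31 in aHFSC against tHFSC, -0.01 in tHFSC against IFE and 0.39 in aHFSC against IFE (0 passed in limma, and 2, 2 and 3 had an unadjusted p under 0.05). Sprr1b, a cornified envelope precursor, differed by 3.73 ± 0.80 in aHFSC against tHFSC (SE; adjusted p = 0.101) and the filament aggregating protein gene Flg by 2.42 ± 0.64 (SE; adjusted p = 0.162, limma). In aged against young HFSC 2 of 25 were positive and the median was -1.71, again with 0 passing (limma; 15 had an unadjusted p under 0.05), and in aged against young IFE 2 of 25 were positive and the median was -0.86 (0 passed in limma, and 7 had an unadjusted p under 0.05). Of 22 measured genes of the wound and alarmin list, 2 rose and 5 fell against IFE in tHFSC, and 3 rose and 0 fell in aHFSC. Over all gene rows 2.11% rose and 4.39% fell in tHFSC, and 1.63% rose and 2.69% fell in aHFSC. The list's median difference was -0.64 in tHFSC and 0.12 in aHFSC, beside -0.05 and -0.14 over all gene rows. The keratins Krt6a and Krt17 rose in both, by 5.49 and 2.02 in tHFSC and by 5.15 and 2.41 in aHFSC (limma).

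For each S100 gene the genes with the most similar level over the 16 arrays were ranked by Pearson correlation among genes with an official symbol outside the family. These are descriptions: the arrays fall into 3 populations and share slides, so a gene that separates the populations will rank high. S100a4 was closest to Ltbp2, Tgm5 and the bulge marker Dkk3 (0.97, 0.96 and 0.96) and S100a6 to Tgm5, Serpinb11 and Ltbp2 (0.95, 0.95 and 0.94). S100a14 was closest to Arhgdib, Pdlim2 and Chit1 (0.96, 0.96 and 0.94), and S100a11 to Psme2b, Clu and Llph (0.96, 0.95 and 0.94).

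S100a8 was closest to the histone gene H3c8, the stefin Stfa2 and the retinol-binding protein gene Rbp2 (0.89, 0.86 and 0.85), and S100a9 to Rassf9, Ttll5 and the histone gene H4c14 (0.84, 0.81 and 0.81). S100a10 was closest to Spry1, Krt13 and Adh7 (0.94, 0.93 and 0.93), S100a3 to Cpeb1, Aebp1 and Agmo (0.87, 0.84 and 0.84), S100a13 to Tbc1d9b, Faap20 and Timm44 (0.92, 0.92 and 0.91) and S100a16 to Slc39a1, Rtraf and Cops9 (0.94, 0.92 and 0.92). Within the family the correlation over the 16 arrays was 0.95 between S100a4 and S100a6, -0.89 between S100a4 and S100a14, 0.75 between S100a11 and S100a14 and 0.69 between S100a8 and S100a9.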

How the data were processed

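Per the labels' protocols, RNA of sorted cells was amplified as cDNA and given a Cy3 label. Agilent Feature Extraction 11.5.1.1 read the spots, per the file headers (array design on mm9). The authors deposited a processed intensity per spot, background-subtracted and linear, and a value table of log2 values, which matched the logged processed signals after subtraction of each array's 75th percentile, to within 0.018. The young control tHFSC scanner file holds 46417 of 55681 probes, and 9264 were filled from the deposited value table without background flags, among them the probes used for S100a8, S100a3, S100a4, S100a10 and S100a13.

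Control and outlier spots were left out, no spot was saturated, and repeat spots were averaged per probe. A probe was kept when 2 or more arrays flagged it well above background (49792 of 55681), giving 31527 gene rows, each the gene's probe with the highest mean. Names came from a RefSeq table for 28026 probes by accession, 3418 by symbol and 295 by synonym, and 23942 kept the file's name. The limma fit (version 3.58.1 in R 4.3.3, eBayes with a trend, two-sided) had a term per HFSC condition, a common aHFSC-minus-tHFSC shift and IFE intercept, age and transgene terms, with 6 residual degrees of freedom, and 5 with the state-by-age term. The least squares were solved per pattern of missing values. On the gene rows without missing values, the p-values of aHFSC against tHFSC matched those of lmFit. Simulated arrays with known differences, also without missing values, were fitted separately. The solving with missing values was not tested.

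Named are all 10 S100 genes, up to 4 genes of each list per comparison (passing first, then by p) and the 3 most correlated genes of each member. Detection counts and values of other marker genes were chosen after their values were seen. The members and lists were chosen with earlier results of these data known. Alternatives covered the background correction, the normalization, the probe filter and choice, the deposited value table, the trend, the slides and the arrays left out. The number of arrays limits the precision.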

Additional observations from a re-analysis of the deposited data

Results flagged for a closer look

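For S100a3 the age differences had opposite signs in HFSC and IFE, but neither passed and that of IFE was smaller than its SE. Aged minus young was 0.55 ± 0.22 in HFSC (SE; adjusted p = 0.375, limma), positive in 4 of 4 pairs. In IFE it was -0.15 ± 0.32 (SE; adjusted p = 0.941, limma), negative in both pairs. The difference of 0.70 between the populations was not tested. Age and slide cannot be told apart in HFSC, while the 4 IFE arrays share a slide. The young control HFSC, set against aged WT, had also received RU486, and the control aHFSC are labelled with plucking.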

How the results depend on the processing

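The labels give no replicate numbers, so no fit with a replicate block was made, and aHFSC was set against tHFSC within each condition. In tHFSC against IFE, S100a4 and S100a14 kept their calls in 21 of 21 alternatives and S100a6 and S100a11 in 20 of 21. In aHFSC against tHFSC, S100a9 kept its call in 10 of 24 alternatives (2.68 to 5.73) and S100a4 in 12 of 25 (-2.19 to -1.80). Of 10 S100 genes, 2 passed in this comparison, 1 with probes well above background on all arrays (S100a8 and S100a9 then untested), 1 without the aged hCOL17A1 aHFSC and young hCOL17A1 IFE arrays, and 0 with eBayes without a trend or within either slide, where fewer arrays enter. Leaving out each array in turn gave 0 to 1. Against IFE, slide 2 alone gave 2 calls in tHFSC (4 as reported) and 0 in aHFSC (4 as reported), where the arrays of the comparison alone and the fit without the same 2 arrays gave 2, and leaving out each array gave 1 to 4. Aged against young IFE gave 1 call from its own arrays and 0 as reported. No called difference changed sign, and the cause of each change was not tested. Over all gene rows, the calls in aHFSC against tHFSC were 170 as reported, 198 after normexp, 193 after quantile normalization, 14 without a trend, 0 within either slide and 0 to 94 with an array left out. In tHFSC against IFE they were 2049 as reported, 356 within slide 2 and 837 to 2243 with an array left out, and in aHFSC against IFE 1362, 340 and 519 to 1574. In aged against young IFE they were 0 as reported, 5 from the 4 IFE arrays alone and 1 to 250 with an IFE array left out. S100a8 and S100a9 lie near background on many arrays, where signals have no order.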
